A study of Mus musculus with 12 samples.

Results

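The 8 genes Spp1, Atp6v0d2, Acp5, Ctsk, Dcstamp, Ocstamp, Gpnmb and Trem2, which are known from osteoclasts and from lipid-associated macrophages, were followed through 12 mammary tumors. They are 8 of the 54532 genes in the deposited tables. Spp1 and Atp6v0d2 were selected on their read counts, which had been seen to be low in tumors of mice fed MSU-42011, and the other 6 were added for their shared function. The values of Spp1 and Atp6v0d2 in comparisons that hold MSU-42011 tumors are therefore given as a description, without a test. Acp5, Ctsk, Gpnmb and Trem2 were tested in each comparison. Dcstamp lay below the filter on low counts of the main fit. It was tested by exact permutation and in alternative fits, among them a fit without that filter. Ocstamp was part of the DESeq2 fit, but had too few reads for a test that could detect a difference.

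The tumors came from MMTV-Neu mice, in which the mouse mammary tumor virus promoter drives the Neu (HER2, Erbb2) gene, in its unactivated wild-type form, in mammary tissue. Mice bearing established tumors ate powdered chow with the vehicle (control, 4 tumors), with MSU-42011 (4 tumors) or with bexarotene (4 tumors), each agent at 100 mg per kg of diet for 10 days. Both agents are agonists of the retinoid X receptor (RXR), a nuclear receptor that partners with other nuclear receptors, and bexarotene is approved for cutaneous T cell lymphoma. Poly(A) RNA was sequenced from pieces of whole tumor, so each value mixes cancer cells with every other cell in the piece, and fewer cells of a type cannot be told apart from less RNA per cell.

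Osteoclasts are bone-resorbing cells that form when precursors of the monocyte and macrophage lineage fuse under macrophage colony-stimulating factor and RANK ligand. Macrophages in tumors, adipose tissue and other lipid-rich places can turn on part of the same gene set without becoming osteoclasts, and osteopontin, the product of Spp1, is a widely used marker of one such state of tumor macrophages. Spp1 is also expressed by epithelial cells, including milk-secreting ones, Ctsk is made by fibroblasts, and Gpnmb is made by melanocytes, so no member by itself marks a cell type in RNA of whole tumor.

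On GRCm38 coordinates, the members lie on 8 chromosomes. Spp1 (ENSMUSG00000029304) is at chr5:104435118-104441050 on the plus strand, Atp6v0d2 (ENSMUSG00000028238) at chr4:19876841-19922605 on the minus strand and Acp5 (ENSMUSG00000001348) at chr9:22126727-22135711 on the minus strand. Ctsk (ENSMUSG00000028111) is at chr3:95499256-95509362, Dcstamp (ENSMUSG00000022303) at chr15:39745930-39760938, Gpnmb (ENSMUSG00000029816) at chr6:49036546-49070929 and Trem2 (ENSMUSG00000023992) at chr17:48346401-48354147, all on the plus strand. Ocstamp (ENSMUSG00000027670) is at chr2:165393760-165400405 on the minus strand. Spp1 overlaps Gm42793, which held 21 reads over all tumors against 18306 for Spp1, and Acp5 overlaps 6530413G14Rik, which held 26 reads against 19060.

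Promoter sequence was read for the members with an entry in the RefSeq promoter table (GRCm38.p6), which were Spp1, Gpnmb, Trem2, Acp5 and Ctsk (5 of 8). The table had no entry for Atp6v0d2, Dcstamp and Ocstamp. The 250 bases before the start site are shown for Spp1 and Gpnmb, whose levels spread widely between tumors, and for Trem2, whose level followed macrophage transcripts. They are written 5′ to 3′ on the gene's strand, at chr5:104434861-104435110 for Spp1, chr6:49036268-49036517 for Gpnmb and chr17:48346151-48346400 for Trem2. Capitals mark matches to searched motifs, which were AACCACA (RUNX), TGACTCA (AP-1), GAGGAAGT (PU.1), CACGTG and CATGTG (MITF/TFE E-boxes) and AGGTCA (nuclear receptor core motif), each on both strands.
Spp1 promoter: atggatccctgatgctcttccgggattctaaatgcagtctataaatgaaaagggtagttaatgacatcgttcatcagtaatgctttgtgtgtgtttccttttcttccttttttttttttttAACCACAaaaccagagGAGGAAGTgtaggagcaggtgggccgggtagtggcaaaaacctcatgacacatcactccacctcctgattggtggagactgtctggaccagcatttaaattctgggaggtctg
Gpnmb promoter: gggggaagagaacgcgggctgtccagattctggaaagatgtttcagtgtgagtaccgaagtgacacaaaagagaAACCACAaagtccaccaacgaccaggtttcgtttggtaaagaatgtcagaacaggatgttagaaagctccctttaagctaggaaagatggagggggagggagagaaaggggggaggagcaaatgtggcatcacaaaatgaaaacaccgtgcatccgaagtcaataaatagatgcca
Trem2 promoter: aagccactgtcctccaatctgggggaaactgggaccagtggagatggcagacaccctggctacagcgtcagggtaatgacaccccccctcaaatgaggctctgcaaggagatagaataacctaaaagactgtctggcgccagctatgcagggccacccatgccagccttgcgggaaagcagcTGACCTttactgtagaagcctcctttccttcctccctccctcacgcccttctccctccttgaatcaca

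The Spp1 window shown above held AACCACA at -129 to -123 from the start site and GAGGAAGT at -113 to -106. Another Spp1 window, at chr5:104435942-104436191, held none of the searched motifs. The Gpnmb window held AACCACA at -176 to -170. RUNX factors and PU.1 act in myeloid cells. In the Trem2 window the match was TGACCT at -68 to -63, which is AGGTCA on the other strand. Over 27025 mouse promoters of the same length, AACCACA was found in 4.46%, GAGGAAGT in 2.44% and AGGTCA in 13.8%, so each is a common word. Of the 3 windows of Acp5, 1 held CACATG, the reverse complement of CATGTG, at -90 to -85, and CATGTG occurs in 12.2% of promoters. No searched motif was in the Ctsk window, and TGACTCA and CACGTG were in none of the windows of the 5 genes but occur in 4.43% and 6.05% of all promoters.

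Total read counts ran from 16583413 to 25925027 per tumor. Levels below are in normalised CPM, the read count scaled to a common library size after TMM normalization by edgeR, and 3 reads correspond to 0.111 to 0.184 CPM depending on the tumor. Tumor epithelium was present in every piece, with Epcam at 1351 to 2529 CPM, Krt8 at 484 to 1224 CPM and Erbb2, the transgene's homolog, at 93.7 to 173 CPM. Bexarotene replicate 1 stood apart from the other tumors. It lay at -115 on the first principal component (33.6% of the variance), where the other 11 lay between -16.2 and 34.2, and its 8 fibroblast markers summed to 10457 CPM, against 92.3 to 813 CPM in the other tumors. Its 16 macrophage markers summed to 2674 CPM, against 366 to 1094 CPM in the other 11 tumors, and its 7 epithelial markers had the lowest sum, 3017 CPM. This tumor was the highest of the 12 for 19.1% of all tested genes, and control replicate 2 was for 9.65%.

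Ranked per transcript length by the authors' FPKM, with the median over 12 tumors, Acp5 was the most abundant member (65.7 FPKM), followed by Spp1 (14.2), Trem2 (12.1), Ctsk (1.59), Gpnmb (0.32), Atp6v0d2 (0.24), Dcstamp (0.20) and Ocstamp (0). Acp5 exceeded 87.6% of the tested genes and Spp1 56.5%, whereas Atp6v0d2 exceeded 3.59%. The order of neighbours was not the same in every tumor. Acp5 was above Spp1 in 9 of 12 tumors, Spp1 above Trem2 in 9, Trem2 above Ctsk in 11, Ctsk above Gpnmb in 10 and Gpnmb above Atp6v0d2 in 10, whereas Atp6v0d2 was above Dcstamp in 5. All but 1 of these pairs thus kept their order in most tumors, but Spp1 and Trem2 overlapped widely, since Spp1 spanned 4.25 to 351 FPKM and Trem2 7.39 to 43.0 FPKM.

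The members differed widely in how much they varied between tumors. The SD of log2(CPM + 0.5) over the 12 tumors was 2.11 for Spp1, larger than that of 99.8% of 15504 tested genes. It was 1.60 for Gpnmb and 1.58 for Ctsk (both above 99.2%), 0.79 for Atp6v0d2 (93.0%), 0.69 for Trem2 (90.4%) and 0.21 for Acp5 (32.3%).

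**Figure D1:**
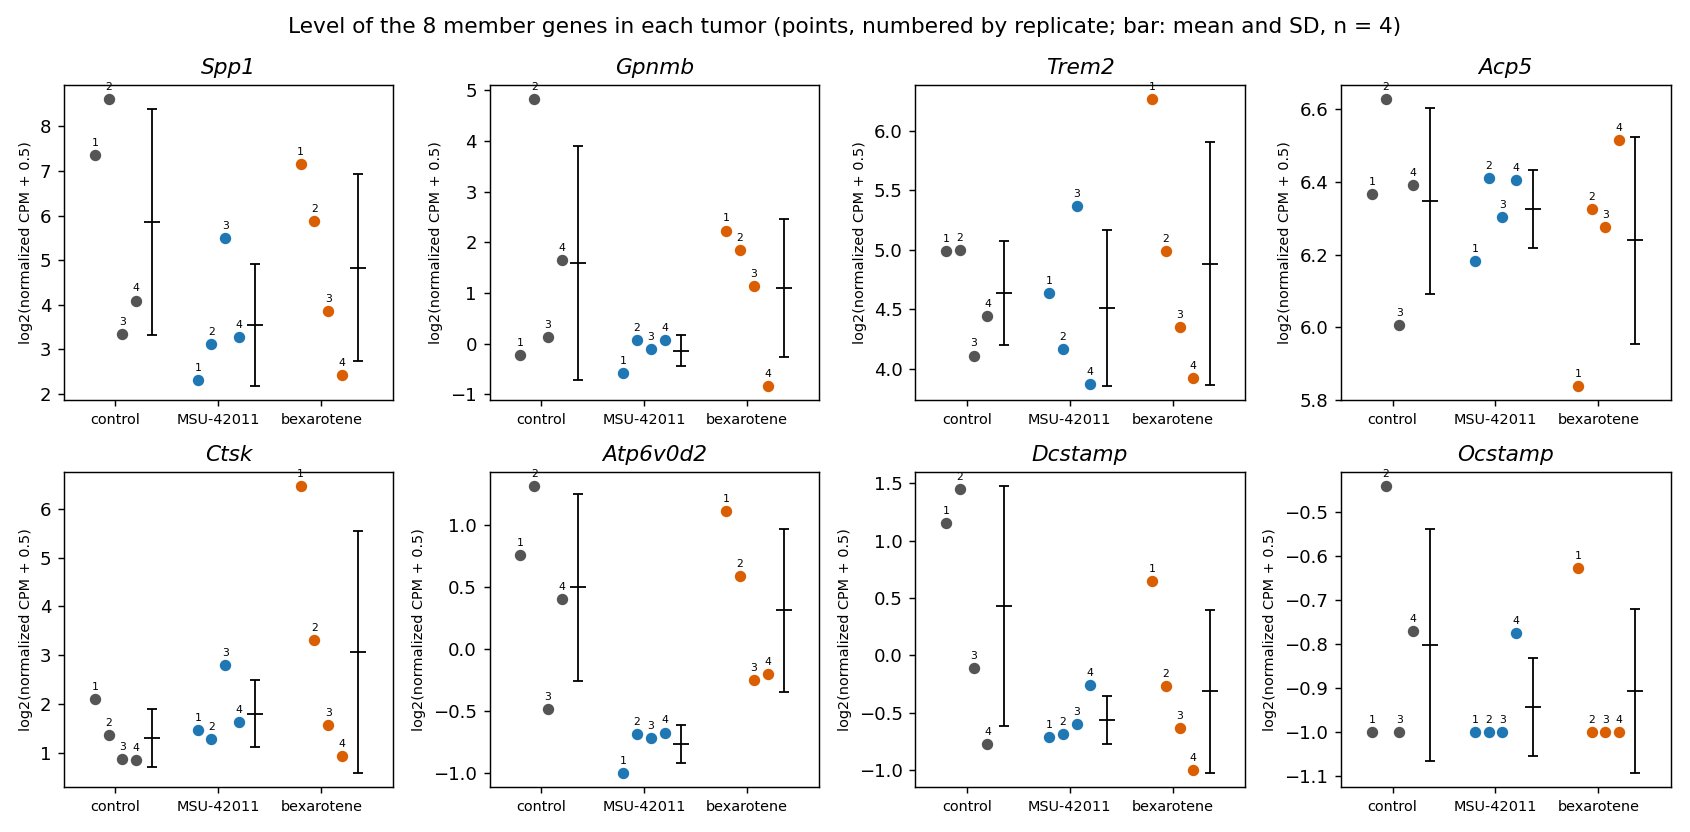
Level of each of the 8 members in each tumor, as log2(normalised CPM + 0.5) on the vertical axis, by diet group on the horizontal axis; points are tumors numbered by replicate, bars give the mean and SD (n = 4) and each panel has its own scale. The 4 MSU-42011 tumors lie below all others for Atp6v0d2, while Acp5 spans less than 1 log2 unit.

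Spp1 encodes osteopontin, a secreted phosphoprotein that binds CD44 and integrins. In the control tumors Spp1 stood at 165, 390, 9.66 and 16.6 CPM in replicates 1 to 4. The MSU-42011 tumors had 4.45, 8.17, 44.6 and 9.21 CPM, and the bexarotene tumors 142, 58.2, 13.9 and 4.90 CPM. Control replicates 1 and 2 and bexarotene replicate 1 were high, the other control tumors lay among the MSU-42011 tumors, and the groups overlapped. The means were 145 ± 178 CPM for control, 16.6 ± 18.8 CPM for MSU-42011 and 54.7 ± 62.6 CPM for bexarotene (SD, n = 4 each), so that in every group the SD exceeded the mean.

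As a description of the difference that chose Spp1, its log2 fold change for MSU-42011 relative to control was -3.13 (SE 1.27, edgeR). It was -1.95 without control replicate 2 and -4.32 without MSU-42011 replicate 3, the only MSU-42011 tumor above 10 CPM. Relative to bexarotene the log2 fold change for MSU-42011 was -1.73 (SE 1.21), and it was -0.63 without bexarotene replicate 1 and -2.91 without MSU-42011 replicate 3. Between bexarotene and control, which share no tumors with the MSU-42011 group but use the controls that chose the gene, Spp1 did not pass the test (log2 fold change -1.40, SE 1.18, edgeR adjusted p = 0.899). That value was -2.50 without bexarotene replicate 1 and -0.22 without control replicate 2.

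Spp1 moved with macrophage transcripts from tumor to tumor. Over 12 tumors its log2 level and the median log2 level of 16 macrophage markers had Pearson r = 0.782 and Spearman rho = 0.797. Relations of Spp1 are given without a test, because its values in 4 of these tumors chose the gene. Without the 2 tumors farthest from the median of the member's level (Spp1 here), r was 0.896, and without bexarotene replicate 1 it was 0.787. After the mean of each diet group was removed, r was 0.853. With the median of the 8 fibroblast markers, r was 0.449 and rho 0.483. That r was 0.843 without the 2 farthest tumors and 0.310 without bexarotene replicate 1. With the median of the 7 milk genes, r was 0.170 and rho 0.070 over all tumors, and r was -0.348 without the 2 farthest tumors and 0.296 without bexarotene replicate 1. The diets were not alike in this, with r = 0.971 in control, -0.074 with MSU-42011 and -0.209 with bexarotene, each over 4 tumors, which are too few for a test.

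The macrophage markers are given beside the Spp1 values of the MSU-42011 tumors. The 16 markers summed to 464 to 1089 CPM there (median 510) and to 366 to 1094 CPM in control (median 815), with none of the 16 at 3 reads or fewer over all tumors. Of these 16 markers 14 had lower values with MSU-42011 than with control, beside 49.7% of all tested genes. None passed the edgeR test, and their median log2 fold change was -0.15. Without control replicate 2, 11 of the 16 were lower (median -0.064). Expressed relative to the macrophage median of its own tumor, Spp1 was at 2.29, 3.77, -0.33 and -0.46 on the log2 scale in the control tumors, at -1.95, -1.05, 0.30 and -0.77 with MSU-42011 and at 1.17, 1.15, -0.45 and -1.35 with bexarotene. On this scale too the groups overlapped, and MSU-42011 minus control was -2.19 against -2.31 for the level itself. The 7 milk markers summed to 41236 to 74903 CPM in control and 29582 to 53317 CPM with MSU-42011, and all 7 had lower values with MSU-42011 (median log2 fold change -0.42, and -0.11 with 6 of 7 lower without control replicate 2). The 7 markers of tumor epithelium summed to 4869 to 6287 CPM in control and 4549 to 5244 CPM with MSU-42011. All 7 were lower, with a median of -0.24, and of -0.17 without control replicate 2. None of these 14 markers was called. The part of macrophage, milk-secreting or epithelial content in the Spp1 difference was not tested further.

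**Figure D2:**
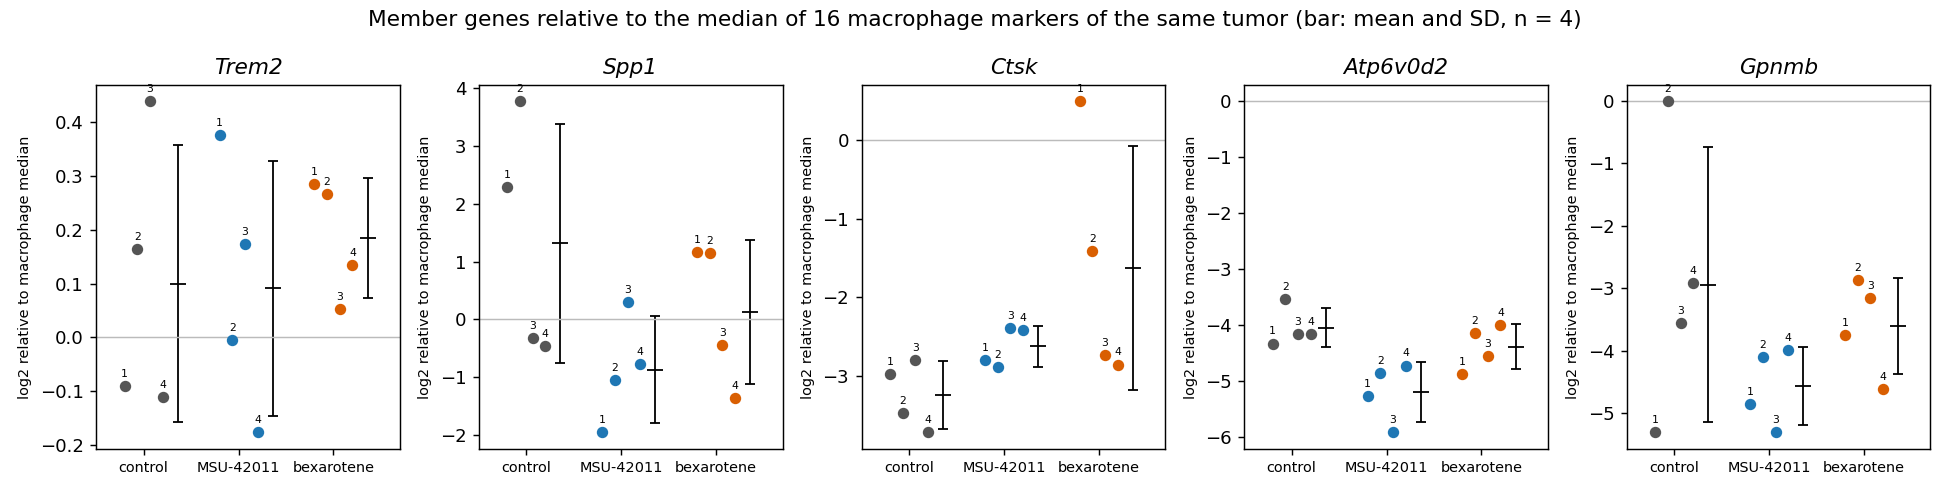
Trem2, Spp1, Ctsk, Atp6v0d2 and Gpnmb relative to the median of 16 macrophage markers of the same tumor (vertical axis, difference of log2 levels) by diet group; points are tumors numbered by replicate, bars give mean and SD (n = 4), and the grey line is equality with the marker median, with its own scale in each panel. Trem2 stays within 0.5 of the line in all 12 tumors, whereas Spp1 runs from -1.95 to 3.77.

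The osteopontin receptors showed no called difference. Of 14 genes for receptors and relatives of osteopontin, 11 were tested, and 6 were higher and 5 lower with MSU-42011 than with control (median log2 fold change 0.027, against 0.0016 over all genes). With bexarotene 7 were higher and 4 lower (median 0.066, against 0.030), and without bexarotene replicate 1 the counts were 3 and 8 (median -0.081). Cd44, the hyaluronan receptor, had 84.5 ± 15.4 CPM in control, 79.6 ± 25.8 with MSU-42011 and 98.2 ± 9.64 with bexarotene (SD, n = 4 each). Itgav, the alpha-v integrin chain, stood at 91.6 ± 14.8, 106 ± 21.4 and 93.6 ± 16.7 CPM in the same order. Itgb3, its beta-3 partner and an osteoclast integrin, had 139 ± 15.9, 103 ± 8.37 and 110 ± 50.5 CPM, a log2 fold change of -0.44 (SE 0.24, edgeR adjusted p = 1.00) for MSU-42011 relative to control. The 3 genes of this list with the smallest p among diets were the integrin chains Itga5, Itga4 and Itga8, and their log2 fold changes for bexarotene relative to control were 1.10, 1.22 and -0.64 (edgeR adjusted p = 0.762, 0.801 and 0.821). Among the bone and tooth matrix relatives of osteopontin, Ibsp, Dspp and Mepe had at most 3 reads over all tumors. Dmp1, the other such relative on the list, passed the filter on low counts and was not called.

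The fusion genes were scarce in all tumors and, in the MSU-42011 tumors, close to the limit of detection. Atp6v0d2 encodes the d2 subunit of the V-ATPase proton pump, which osteoclast precursors need in order to fuse and which some macrophages also express. The read counts of Atp6v0d2 were 20, 42, 4 and 19 in control replicates 1 to 4, 0, 2, 2 and 3 in the MSU-42011 tumors and 45, 21, 7 and 6 in the bexarotene tumors. In normalised form the control tumors held 1.19, 1.99, 0.21 and 0.82 CPM and the bexarotene tumors 1.66, 1.00, 0.34 and 0.37 CPM, whereas no MSU-42011 tumor exceeded 0.13 CPM. The MSU-42011 tumors did not overlap with either other group, while bexarotene and control tumors overlapped.

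Atp6v0d2 was the only member whose MSU-42011 tumors all lay below all control tumors, which holds for 0.806% of all tested genes, and again the only one below all bexarotene tumors, which holds for 0.535%. Between bexarotene and control no member was without overlap, against 2.03% of all tested genes. Because this gene was chosen for low values with MSU-42011, nothing is read from these counts. Summed over tumors and scaled by library size, MSU-42011 had 7 reads and control 85, a ratio of 0.085 with a 95% exact counting interval of 0.033 to 0.184. Against 79 reads with bexarotene, the ratio was 0.098 (0.038 to 0.211). These intervals cover counting error and not the spread between tumors. The edgeR log2 fold changes of -3.46 (SE 0.85) and -3.16 (SE 0.85) rest on these 7 reads, with 0 to 3 in each MSU-42011 tumor. Bexarotene minus control was -0.30 (SE 0.68, edgeR adjusted p = 0.962), and it was 0.20 without control replicate 2 and -0.87 without bexarotene replicate 1.

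Against macrophage transcripts of the same tumor the order was kept for control but not for bexarotene. The log2 level of Atp6v0d2 relative to the macrophage median was -4.33, -3.52, -4.16 and -4.16 in control, and -5.26, -4.86, -5.92 and -4.72 with MSU-42011. It was -4.87, -4.14, -4.55 and -3.99 with bexarotene. The MSU-42011 tumors lay below every control tumor and overlapped with bexarotene replicate 1. With 0 to 3 reads, these relative values are set largely by the added 0.5 CPM.

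No other subunit of the proton pump was called. Atp6v0d1, the d1 subunit found in all cells, had 130 ± 8.62 CPM in control, 124 ± 5.73 with MSU-42011 and 122 ± 15.6 with bexarotene (SD, n = 4 each). Its log2 fold change for MSU-42011 relative to control was -0.072 (SE 0.10, edgeR adjusted p = 1.00). Per length, Atp6v0d2 amounted to 0.123% to 1.15% of Atp6v0d1 in control tumors, 0% to 0.0779% in MSU-42011 tumors and 0.189% to 1.11% in bexarotene tumors. Tcirg1, the a3 subunit of the pump in osteoclasts, stood at 147 ± 24.2, 118 ± 28.7 and 132 ± 20.4 CPM in control, MSU-42011 and bexarotene tumors, and its log2 fold change for MSU-42011 relative to control was -0.32 (SE 0.18, edgeR adjusted p = 1.00).

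Of 22 V-ATPase genes outside the members, 21 were tested and none was called in any comparison. With MSU-42011, 8 were higher and 13 lower than control (median log2 fold change -0.086). With bexarotene, 8 were higher and 13 lower (median -0.063, and 11 and 10 with a median of 0.022 without bexarotene replicate 1), and both comparisons use the same control tumors. Atp6v1c2, Atp6v0b and Atp6v1b1 had the smallest p among diets on this list. Atp6v1c2, the epithelial C2 subunit, had 57.3 ± 10.9, 91.7 ± 40.7 and 95.4 ± 25.4 CPM in control, MSU-42011 and bexarotene tumors (log2 fold change 0.68, SE 0.28, and 0.74, SE 0.28, edgeR adjusted p = 1.00 and 0.762). Atp6v0b had a log2 fold change of -0.20 (SE 0.11, edgeR adjusted p = 1.00) for MSU-42011 relative to control, and Atp6v1b1, a kidney and epithelial subunit, -0.55 (SE 0.47, edgeR adjusted p = 1.00).

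Dcstamp and Ocstamp encode membrane proteins required for cell fusion in osteoclasts, and neither passed the filter on low counts. Dcstamp had 29, 47, 8 and 2 reads in the control tumors, 2, 2, 3 and 8 with MSU-42011 and 29, 7, 3 and 0 with bexarotene. Control replicates 1 and 2 and bexarotene replicate 1 held most of its 140 reads, and these were also the tumors with the most Spp1. The log2 level of Dcstamp did not differ between MSU-42011 and control beyond the spread between tumors (-0.56 ± 0.21 against 0.43 ± 1.05, SD, n = 4 each, exact permutation p = 0.171). Fitted without the filter, its log2 fold change was -2.52 (SE 1.00, edgeR adjusted p = 0.948). The summed reads were 15 for MSU-42011 and 86 for control, a ratio of 0.181 (95% counting interval 0.097 to 0.315). This interval covers counting error and not the spread between tumors, which the permutation test above takes into account. Over the 12 tumors Dcstamp and Spp1 had r = 0.874 and rho = 0.748, with r = 0.708 without the 2 farthest tumors, again without a test.

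Ocstamp was found with 13 reads in all, 5 of them in control replicate 2 and 4 in bexarotene replicate 1, and 8 of 12 tumors had 0. At this depth no difference in Ocstamp was detectable. Some other osteoclast genes, picked here for their low counts, were as scarce. Calcr, the calcitonin receptor, had 1 read over all 12 tumors, Oscar 8 and Siglec15 11, and Tnfsf11, which encodes RANK ligand, had 14 reads, of which 11 were in bexarotene replicate 1. Other genes of the same osteoclast list, which many other cells also express, were abundant, with medians over 12 tumors of 198 CPM for Car2, 130 for Src, 127 for Tcirg1, 36.2 for Ostm1 and 32.7 for Clcn7.

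The resorption enzymes behaved differently from each other. Acp5 encodes tartrate-resistant acid phosphatase, the classical stain for osteoclasts, which macrophages also make. Acp5 had 81.9 ± 14.2 CPM in control, 79.8 ± 5.89 CPM with MSU-42011 and 76.1 ± 14.2 CPM with bexarotene (SD, n = 4 each). The lowest tumor was bexarotene replicate 1 at 56.8 CPM and the highest control replicate 2 at 98.3 CPM, and the groups overlapped. The log2 fold changes were -0.037 for MSU-42011 relative to control (SE 0.15, edgeR adjusted p = 1.00), -0.11 for bexarotene (adjusted p = 0.942) and 0.070 between the agonists (95% interval -0.26 to 0.40, adjusted p = 0.997). In the same tumors Spp1 spanned 88-fold, and its relation with Acp5 had r = 0.040 and rho = -0.0070, with r = -0.501 without the 2 farthest tumors and 0.421 without bexarotene replicate 1. The relation of Acp5 with the macrophage median was r = -0.312 and rho = -0.196 (permutation p = 0.321 and 0.543, or 0.362 and 0.611 after Benjamini-Hochberg adjustment over 18 relations), with r = -0.073 without the 2 farthest tumors and 0.295 without bexarotene replicate 1. The diets differed in both relations. For Acp5 and the macrophage median r was 0.828 in control, -0.265 with MSU-42011 and -0.968 with bexarotene. For Acp5 and Spp1 it was 0.812, 0.179 and -0.856 in the same order. Each of these values rests on 4 tumors, too few for a test.

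Ctsk encodes cathepsin K, the collagen-degrading protease of osteoclasts, also made by fibroblasts. In control replicates 1 to 4 Ctsk stood at 3.79, 2.08, 1.33 and 1.29 CPM, and in the MSU-42011 tumors between 1.94 and 6.49 CPM (41, 32, 120 and 62 reads). The bexarotene tumors had 88.0, 9.38, 2.47 and 1.41 CPM. The groups overlapped, and replicate 1 of bexarotene, the tumor with the high fibroblast markers, stood far above all others. The log2 fold change for bexarotene relative to control was 3.58 (SE 1.11, edgeR adjusted p = 0.762), and it was 1.07 without bexarotene replicate 1. Between the agonists it was -2.93 (SE 1.08, edgeR adjusted p = 0.997), and -0.42 without that tumor. MSU-42011 relative to control gave 0.65 (SE 1.05, edgeR adjusted p = 1.00), 0.10 without MSU-42011 replicate 3 and 1.08 without control replicate 1.

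Ctsk tracked fibroblast transcripts. Over 12 tumors its log2 level and the median of 8 fibroblast markers had r = 0.979 and rho = 0.853 (permutation p = 1e-05, the smallest that the resampling can give, and 0.00062, adjusted p = 0.00018 and 0.00558), and r was 0.831 without the 2 farthest tumors and 0.907 without bexarotene replicate 1. With the macrophage median r was 0.832 and rho 0.678 (permutation p = 0.00101 and 0.0182, adjusted p = 0.00303 and 0.0411), and 0.740 without the 2 farthest tumors. Relative to the macrophage median, Ctsk in bexarotene minus control tumors was 1.61 (exact permutation p = 0.0571, 0.486 after adjustment over 17 comparisons), where 4 tumors against 4 cannot give a p below 0.0286. Mmp9, a gelatinase that osteoclasts and neutrophils secrete, had 309 of its 390 reads in the same bexarotene replicate 1.

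**Figure D3:**
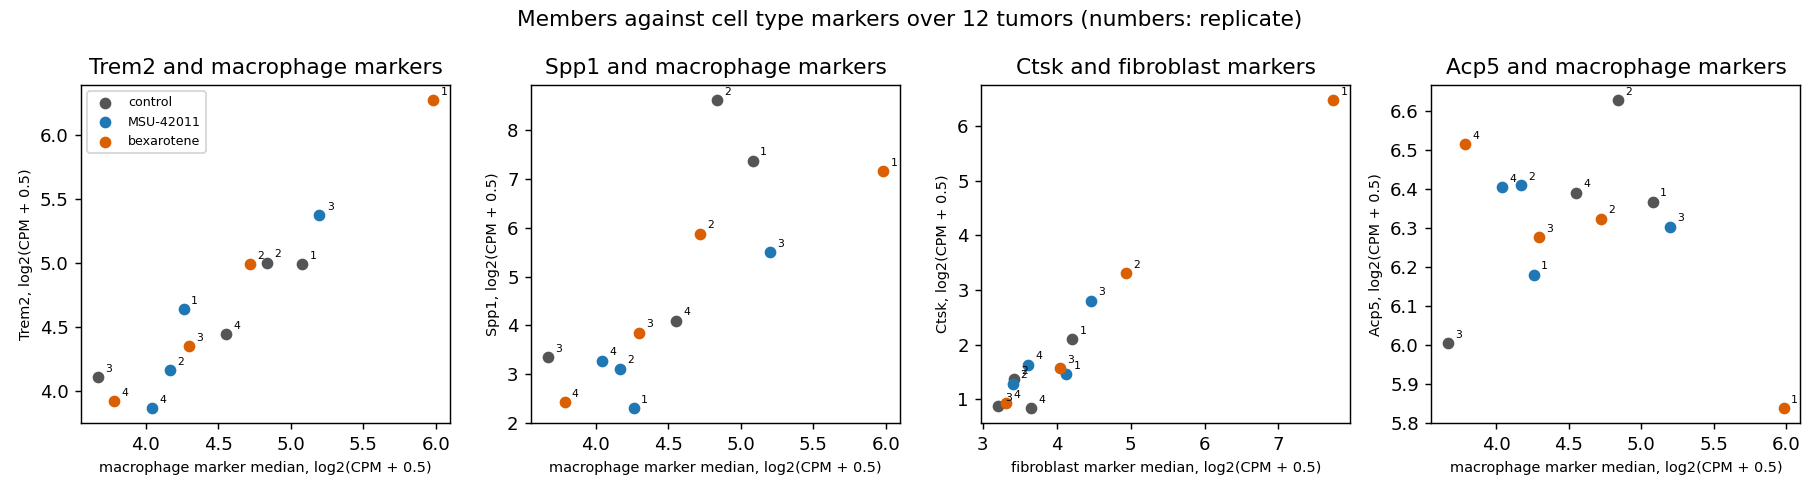
Log2 level of Trem2, Spp1, Ctsk and Acp5 (vertical axes, log2(CPM + 0.5)) against the median log2 level of 16 macrophage or 8 fibroblast markers (horizontal axes) in 12 tumors colored by diet and numbered by replicate. Trem2 and Ctsk rise with their markers (r = 0.959 and 0.979), Spp1 rises with wider scatter (r = 0.782) and Acp5 has r = -0.312, which is 0.295 without bexarotene replicate 1.

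The lipid-associated macrophage genes Trem2 and Gpnmb also parted. Trem2 is a lipid-sensing receptor of macrophages, microglia and osteoclasts that signals through the adaptor Tyrobp. Control tumors had 31.3, 31.5, 16.8 and 21.3 CPM of Trem2, MSU-42011 tumors 24.4, 17.4, 40.9 and 14.1 CPM and bexarotene tumors 76.5, 31.2, 19.9 and 14.6 CPM. The groups overlapped, with bexarotene replicate 1 highest. The log2 fold change was -0.059 for MSU-42011 relative to control (SE 0.48, edgeR adjusted p = 1.00) and 0.50 for bexarotene (SE 0.48, edgeR adjusted p = 0.912), which became -0.20 without bexarotene replicate 1. Between the agonists it was -0.56 (95% interval -1.60 to 0.48, edgeR adjusted p = 0.997), and it was 0.14 without bexarotene replicate 1 and -0.93 without MSU-42011 replicate 3.

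Trem2 followed general macrophage transcripts closely. With the median of the 16 macrophage markers, which exclude Trem2, r was 0.959 and rho 0.944 (permutation p = 2e-05 and 3e-05, adjusted p = 0.00018 and 0.00054). It was 0.892 without the 2 farthest tumors and 0.921 without bexarotene replicate 1. Relative to that median Trem2 lay between -0.18 and 0.44 on the log2 scale in all 12 tumors. Trem2 also rose with the median of the 8 fibroblast markers (r = 0.858, rho = 0.748, permutation p = 0.00094 and 0.00753, adjusted p = 0.00303 and 0.0212). That r was 0.635 without the 2 farthest tumors and 0.696 without bexarotene replicate 1. Per length, Spp1 amounted to 1.01 to 21.7 times Trem2 in control tumors, 0.32 to 1.91 times in MSU-42011 tumors and 0.59 to 3.26 times in bexarotene tumors. The relation of Trem2 with Spp1 itself had r = 0.741 and rho = 0.741, with r = 0.878 without the 2 farthest tumors.

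Gpnmb is a transmembrane glycoprotein of osteoclasts, melanocytes and lipid-laden macrophages and a target of MITF-family factors. The control tumors had 0.36, 27.8, 0.59 and 2.63 CPM of Gpnmb, the MSU-42011 tumors 0.16, 0.54, 0.43 and 0.54 CPM, and the bexarotene tumors 4.20, 3.10, 1.69 and 0.061 CPM. Control replicate 2 held 589 of the 915 Gpnmb reads, control replicate 1 lay among the MSU-42011 tumors, and bexarotene replicate 4 was the lowest of all. All 4 MSU-42011 tumors had 13 reads or fewer. The log2 fold change for MSU-42011 relative to control was -4.20 (SE 1.36, edgeR adjusted p = 1.00), and it was -1.50 without control replicate 2. Relative to bexarotene it was -2.41 (SE 1.30, edgeR adjusted p = 0.997). For bexarotene relative to control, the value of -1.78 (SE 1.19, edgeR adjusted p = 0.877) became 0.91 without control replicate 2. In log2 level, MSU-42011 did not differ from control (difference -1.73, exact permutation p = 0.20) or bexarotene (-1.24, exact permutation p = 0.143) beyond the spread between tumors. Of 5 melanocyte markers, Dct, Tyrp1 and Tyr had at most 3 reads over all tumors, while Pmel passed the filter and was not called. The 5 summed to 1.47 to 2.67 CPM in control, 2.09 to 3.14 CPM with MSU-42011 and 1.81 to 2.66 CPM with bexarotene.

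**Figure D4:**
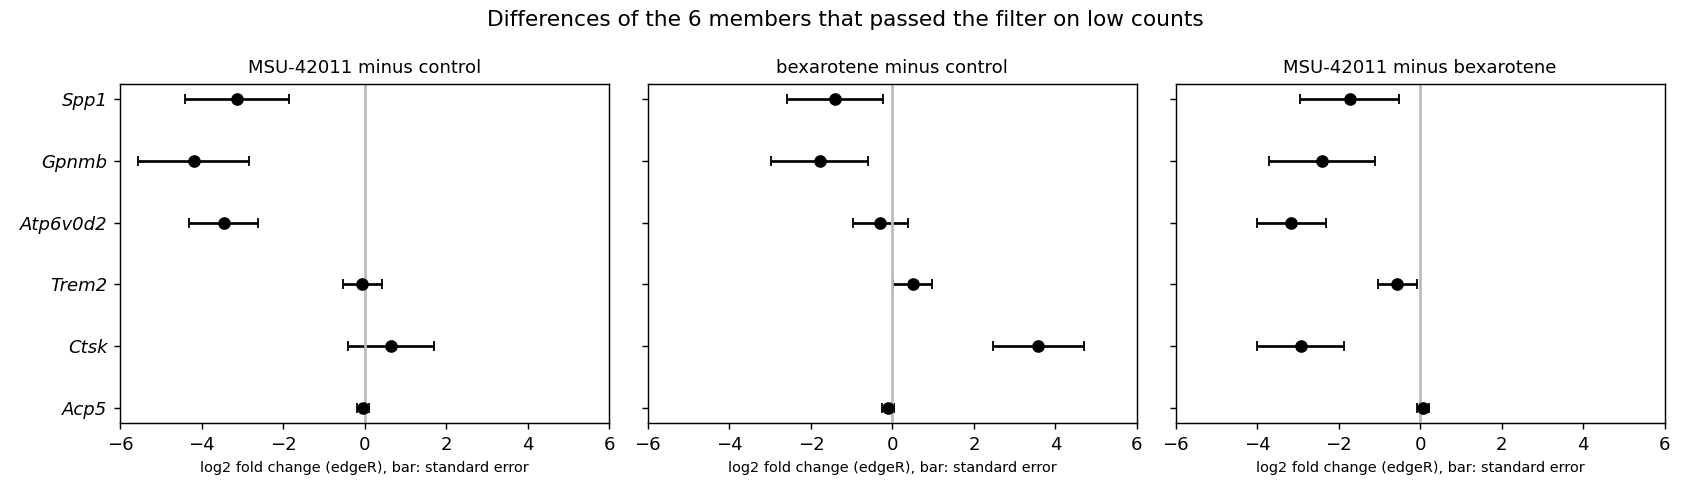
Log2 fold change (horizontal axis, edgeR) of the 6 members that passed the filter on low counts, in MSU-42011 minus control, bexarotene minus control and MSU-42011 minus bexarotene, with 4 tumors in each group. Bars are standard errors derived from the F statistic of the fit. Acp5 lies near 0 with short bars, Trem2 lies between -0.56 and 0.50, Spp1, Gpnmb and Atp6v0d2 lie below 0 in all 3 panels, and Ctsk lies at 3.58 in the middle panel.

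No member was called in the comparisons in which it was tested. Spp1 and Atp6v0d2 were part of the fits that hold MSU-42011 tumors, but nothing is read from their results there. EdgeR called 0 of 15504 genes in each of the 3 comparisons and among the 3 diets (0% of the genes tested). At an unadjusted p under 0.05 it had 309 genes for MSU-42011 relative to control, 998 for bexarotene relative to control, 612 between the agonists and 657 among the diets. DESeq2 at its defaults called 1, 6, 25 and 5 genes (0.00338%, 0.0203%, 0.0845% and 0.0169% of those tested). None was a member in a comparison in which that member was tested. Over the log2 levels of the members, exact permutation tests gave no p under 0.143 (17 comparisons, adjusted p from 0.85 to 0.886).

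RANK, Csf1r and Nfatc1, upstream regulators of the osteoclast program, were detected in all 3 groups, and none passed the test, while RANK ligand, above, was too scarce for the test. Tnfrsf11a, which encodes RANK, the receptor of RANK ligand, had 92.2 ± 10.5 CPM in control, 82.7 ± 6.08 with MSU-42011 and 76.7 ± 7.94 with bexarotene (SD, n = 4 each), with log2 fold changes of -0.16 (SE 0.11, edgeR adjusted p = 1.00) and -0.27 (SE 0.11, edgeR adjusted p = 0.762). Csf1r, the receptor of macrophage colony-stimulating factor, had 51.6 ± 18.5, 43.5 ± 18.1 and 83.7 ± 92.1 CPM, its highest value being 221 CPM in bexarotene replicate 1. Nfatc1, the master transcription factor of osteoclast differentiation, had 11.2 ± 2.68, 14.5 ± 3.37 and 15.9 ± 7.01 CPM, and its log2 fold change was 0.37 (SE 0.29, edgeR adjusted p = 1.00) with MSU-42011 and 0.51 (SE 0.29, edgeR adjusted p = 0.851) with bexarotene.

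Of the 27 osteoclast genes outside the members, 22 were tested by edgeR, and none was called. With MSU-42011 8 were higher and 14 lower than control (median log2 fold change -0.026), beside 49.7% of all tested genes that were lower. With bexarotene 15 were higher and 7 lower (median 0.36, beside 44.7% of all genes that were lower), and without bexarotene replicate 1 the counts were 5 and 16 (median -0.14). Between the agonists 5 were higher and 17 lower with MSU-42011 than with bexarotene (median -0.25). Without bexarotene replicate 1 these counts were 13 and 8 (median 0.12). DESeq2 at its defaults, which held all 27, called 1 of them, lower with MSU-42011 than with bexarotene. It called 0.0845% of all genes in that comparison. Tnfrsf11b, Src and Tnfrsf11a had the smallest p among diets. Tnfrsf11b, the decoy receptor osteoprotegerin, had 389 of its reads in bexarotene replicate 1 and at most 19 in the others. Src, a kinase that osteoclasts need to resorb bone, stood at 145 ± 9.93, 126 ± 5.57 and 119 ± 15.2 CPM in control, MSU-42011 and bexarotene tumors (log2 fold change -0.21, SE 0.10, and -0.28, SE 0.10, edgeR adjusted p = 1.00 and 0.762).

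The MITF/TFE factors, which regulate lysosomal genes as well as Acp5, Ctsk and Gpnmb, were all tested. With MSU-42011 2 of the 4 were higher and 2 lower, and with bexarotene all 4 were higher (median log2 fold change 0.42, and 0.17 without bexarotene replicate 1), none of them called. Mitf had 5.30 ± 1.26 CPM in control, 6.58 ± 1.21 with MSU-42011 and 8.77 ± 3.97 with bexarotene (SD, n = 4 each), with a log2 fold change of 0.73 (SE 0.30, edgeR adjusted p = 0.762) for bexarotene relative to control. Tfec had 0.87 ± 0.52, 0.88 ± 0.48 and 1.52 ± 1.13 CPM in the same order, and Tfeb had a log2 fold change of 0.083 (SE 0.17, edgeR adjusted p = 0.958) for bexarotene relative to control.

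Among 20 other genes of lipid-associated macrophages, all tested, 5 were higher and 15 lower with MSU-42011 than with control (median log2 fold change -0.15, against 0.0016 over all genes), and none was called. Without control replicate 2 the counts were 7 and 13 (median -0.039). With bexarotene 9 were higher and 11 lower (median -0.031), and without bexarotene replicate 1 the counts were 5 and 15 (median -0.19). Lgals3, Plin2 and Cd63 had the smallest p among diets. Lgals3, which encodes galectin-3, stood at 46.6 ± 26.6 CPM in control, 20.7 ± 2.17 CPM with MSU-42011 and 34.6 ± 13.6 CPM with bexarotene (SD, n = 4 each), a log2 fold change of -1.17 (SE 0.40, edgeR adjusted p = 1.00) for MSU-42011. Its lowest control tumor had 17.1 CPM, so the groups overlapped. Plin2, a lipid droplet coat protein, had 771 ± 148, 823 ± 186 and 576 ± 156 CPM, and Cd63, a lysosomal tetraspanin, 216 ± 38.1, 183 ± 28.5 and 239 ± 41.9 CPM. Lpl, the lipoprotein lipase, and Fabp5, a fatty acid carrier, differed by log2 fold changes of -0.17 (SE 0.55) and 0.14 (SE 0.50) between MSU-42011 and control (edgeR adjusted p = 1.00 for both), and Fabp5 by 0.99 (SE 0.50, edgeR adjusted p = 0.807) between bexarotene and control. Many genes of this list are also expressed by mammary epithelium, so it is not a measure of macrophages alone.

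Across the 12 tumors, the genes most like Spp1 by Spearman rho among 15503 others were Fignl2 (0.958), Ccdc88b (0.916), Galnt6 (0.909), Fap (0.909) and Prr7 (0.902). Atp6v0d2 ranked 140th in likeness to Spp1, Trem2 216th, Gpnmb 593rd, Ctsk 1594th and Acp5 7772nd. The genes most like Atp6v0d2 were Ripply3 (0.923), Ftl1 (0.902), Pf4 (0.895), Gm49172 (0.874) and Card19 (0.860), with Spp1 at rank 32, Gpnmb at 229 and Trem2 at 1319. Spp1 and Atp6v0d2 had r = 0.852 and rho = 0.776 with each other, a description without a test because both were chosen for low values in the same 4 tumors. These rankings rest on 12 tumors that share diets, and no member was among the 5 genes most like Spp1 or most like Atp6v0d2.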

How the data were processed

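RNA from 12 tumors, assigned to 3 diet groups by their labels, was sequenced by Novogene. The submitters' processing notes name STAR 2.6.1d, featureCounts 1.5.0-p3 and DESeq2. The strand setting and genome build are not given in the sources used here, but coordinates matched GENCODE M21 (GRCm38) for 53499 of 54409 shared genes (98.3%). The authors deposited raw counts per gene, without normalization, and the deposited FPKM values are counts scaled by library total and a gene length, which is at or below the listed gene length. Totals of 16583413 to 25925027 counts limit the precision of scarce genes.

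Genes were kept by filterByExpr (15504 of 54532, 6 of the 8 members), scaled by TMM and tested with edgeR 4.0.16 quasi-likelihood F tests in R 4.3.3, 1 mean per diet and no covariate, with Benjamini-Hochberg adjustment at 0.05. Single levels, log2(CPM + 0.5), were compared by two-sided exact permutation tests, and correlations by 100000-resample permutation. The members, gene lists and relations were chosen with earlier results of these data known. Named genes were the 8 members, 13 genes of the pathway, the 3 genes of each list with the smallest p among diets, and the 5 genes most like Spp1 and Atp6v0d2. Other genes (markers and genes near 0) were chosen after their values were seen. The 18 correlations, and the list medians without bexarotene replicate 1 or control replicate 2, were also chosen after seeing the data. The adjustment over 18 relations counts those of Spp1 and Atp6v0d2, which are given without a test. Replicates are separate tumors by label. Alternatives were other size factors, filters, robust fits, a replicate block, fits of 2 groups alone, leaving out each tumor, limma 3.58.1 on log2 FPKM and DESeq2 1.42.0. The scripts were tested on simulated data.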

Additional observations from a re-analysis of the deposited data

Results flagged for a closer look

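Of 21 groups of 4 tumors screened for a tumor far from the others, 1 was flagged, about what chance gives (1 group in 20). The log2 level of Atp6v0d2 in MSU-42011 replicate 1 was the lowest of its group. Its gap to the next tumor was 0.874 of the range of the group, above the 0.829 set for a flag with 4 tumors. That tumor had 0 reads and the other 3 had 2 or 3, so the gap is the step between 0 and 2 reads. Atp6v0d2 was chosen for low values in these tumors, so the flag is a description and nothing is read from it.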

How the results depend on the processing

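In the comparisons in which it was tested, no member was called in any alternative fit across all genes. DESeq2 called 5 genes among the diets with or without its Cook's distance filter. It called 1 for MSU-42011 relative to control (7 without the filter), 6 for bexarotene relative to control (7) and 25 between the agonists (42). The cause was not tested. With 1 tumor left out, edgeR called 0 to 1 genes among the diets and 0 to 1 for bexarotene relative to control, the call appearing without MSU-42011 replicate 2, and 0 in the other comparisons. The replicate numbers did not pair tumors (12 same-number pairs, r from -0.352 to 0.349, 4 over 0.1, and 5 of 12 tumors closest to their own number). A replicate block left the calls at 0 in every comparison, with 371, 326, 711 and 415 genes at an unadjusted p under 0.05 among the diets, for MSU-42011 and bexarotene relative to control and between the agonists.

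Values near 0 changed sign. Acp5 in MSU-42011 minus control became 0.039 on log2(FPKM + 1), with limma and without a model, and 0.039 with 0.1 added. Trem2 relative to Csf1r alone, or to the mean of the macrophage list, became 0.12 and 0.11 (MSU-42011 minus control), -0.0025 and -0.0027 (bexarotene minus control) and 0.13 and 0.11 (MSU-42011 minus bexarotene). Ctsk relative to macrophage genes reached the smallest exact permutation p of 0.0286 with the mean of the list as reference (0.73 for MSU-42011 and 1.52 for bexarotene minus control) or with Csf1r alone (1.52 for bexarotene). The Atp6v0d2 difference of MSU-42011 minus control ran from -2.38 with 0.1 CPM added to -0.63 on log2(FPKM + 1), since its levels are near the added value. Among the values under alternatives other than leaving out a tumor, 301 kept their direction and call, 18 moved by more than the spread or the limit set for counts, 10 changed sign and 3, the Ctsk values above, reached an unadjusted exact permutation p of 0.0286.

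Leaving out 1 tumor turned the sign of these differences. The log2 level in MSU-42011 minus control ran from -0.14 to 0.070 for Acp5 and -0.41 to 0.088 for Trem2. The log2 level in bexarotene minus control ran from -0.22 to 0.024 for Acp5, -0.51 to 0.088 for Atp6v0d2, -1.10 to 0.58 for Gpnmb and -0.22 to 0.57 for Trem2. The log2 level in MSU-42011 minus bexarotene ran from -0.047 to 0.18 for Acp5, -0.48 to 0.068 for Dcstamp and -0.69 to 0.091 for Trem2. The level relative to macrophage genes in MSU-42011 minus control ran from -0.080 to 0.36 for Acp5 and -0.10 to 0.10 for Trem2. The level relative to macrophage genes in bexarotene minus control ran from -0.66 to 0.29 for Acp5 and -1.44 to 0.32 for Gpnmb. The level relative to macrophage genes in MSU-42011 minus bexarotene ran from -0.20 to 0.76 for Acp5 and -0.20 to 0.30 for Dcstamp. The edgeR log2 fold change in MSU-42011 minus control ran from -0.14 to 0.061 for Acp5 and -0.44 to 0.13 for Trem2. The edgeR log2 fold change in bexarotene minus control ran from -0.21 to 0.011 for Acp5, -0.87 to 0.20 for Atp6v0d2, -2.26 to 0.91 for Gpnmb and -0.20 to 0.75 for Trem2. The edgeR log2 fold change in MSU-42011 minus bexarotene ran from -0.048 to 0.17 for Acp5 and -0.93 to 0.14 for Trem2. The depth limits Atp6v0d2, Dcstamp and Ocstamp, which had 0 to 3 reads in most MSU-42011 tumors, and tumors per group (4) limit the rest.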
